A study of Arabidopsis thaliana with 8 samples.

Results

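The genes described here encode the enzymes of the Calvin cycle and of photorespiration in Arabidopsis seedlings. They were chosen by locus: 35 loci were named, and 33 of them had a row of their own among the 26987 gene entries of each table. Of these 33, 23 belong to the Calvin cycle and 10 to photorespiration. The remaining 2 loci, CAT2 (AT4G35090), a peroxisomal catalase, and GGT1 (AT1G23310), a glutamate:glyoxylate aminotransferase, fell in entries that join them with a gene on another chromosome, and they were not analysed here. No measured value entered the choice of loci, but the list was drawn up with earlier results of these data known.

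RNA from whole seedlings was sequenced as 8 libraries, 1 per condition, so nothing below carries a replicate error, a p-value or a test, and every difference is a difference between 2 libraries. Dark-grown seedlings were 5 days old and those from long days 9 days old, so the effects of light and of age are mixed. In each light condition there were 4 libraries, all in the Col-0 ecotype: wild-type Col-0, the null allele bri1-116 of the brassinosteroid receptor gene BRI1, and DAYi, a transgenic RNAi line in which dexamethasone (DEX) switches on silencing of DAY, the gene of a chloroplast and endomembrane chaperone. DAYi was grown with 1 µM DEX or with the solvent ethanol (EtOH), and Col-0 and bri1-116 were also grown on EtOH plates. The comparisons ask which transcripts differ when DAY is silenced or when the brassinosteroid receptor is missing, under either light condition. The titles of the DAYi libraries carry an unexplained 3 (EtOH) or 25 (DEX), so a different line and the treatment cannot be told apart. The light bri1-116 library has an unexplained "new" in its title.

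Some labels need care. Expression is given as fragments per kilobase of transcript, scaled to the depth of the library (FPKM). DAY itself read 73.5, 56.9, 41.8 and 6.88 FPKM in light Col-0, DAYi EtOH, bri1-116 and DAYi DEX, and 13.8, 13.4, 32.8 and 34.8 FPKM in the dark in that order. In the dark the silenced gene was therefore higher, not lower, in the library whose label names DEX, which is called by that label throughout. For the dark Col-0 and bri1-116 libraries the genotype field of the labels contradicts the title. The titles are followed here, and every difference between these libraries turns its sign if the field is right. BRI1 read 70.6, 68.0, 42.5 and 43.0 FPKM in the dark by title, in the order Col-0, DAYi EtOH, bri1-116 and the DEX-labelled library, and 58.1, 54.1, 33.3 and 30.2 FPKM in the light. Depth was estimated roughly from the steps between low values, at 46.5 to 121 fragments per FPKM and kilobase. Dark and light libraries, and DAYi and bri1-116, stand in different tables, and whether these were scaled together is not given in the sources used here. Across genes, the median log2 ratio of the 10 comparisons lay between -0.06 and 0.05.

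The Calvin cycle fixes CO2 in the chloroplast stroma. Rubisco joins CO2 to ribulose bisphosphate, the product is phosphorylated and reduced to triose phosphate, and a chain of aldolases, phosphatases, a transketolase, isomerases and phosphoribulokinase rebuilds the acceptor. Rubisco also takes oxygen in place of CO2, and photorespiration salvages the resulting phosphoglycolate through peroxisomes and mitochondria back to glycerate, which re-enters the cycle in the chloroplast. The genes of both pathways are classical light-induced nuclear genes of green tissue. Etiolated seedlings, which have not seen light, hold etioplasts in place of chloroplasts, and brassinosteroid mutants are known to be partly de-etiolated in the dark.

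Promoter letters were read in the 250 bases before the start of each file entry, on the gene's strand, from the RefSeq TAIR10.1 genome. RefSeq places the gene start upstream of the file entry for 29 of the 33 members, by 243, 73, 36 and 226 bases for RBCS1A, RBCS1B, RBCS2B and RBCS3B, the small-subunit genes of Rubisco (RBCS), by 90 and 463 bases for GLDP1 and GLDP2, and by up to 1237 bases for pdTPI. Much or all of a window can therefore lie inside the RefSeq gene. RBCS2B and GLDP1 are shown because their G-boxes lie upstream of the RefSeq gene too, and only that part of the window is printed, 5′ to 3′. RBCS2B stands for the genes with the highest levels, and GLDP1 and GLDP2 are isoforms of one enzyme whose log2 ratios lay furthest apart in the dark. Capitals mark the G-box (CACGTG) and the I-box (GATAAG, or CTTATC where it lies on the other strand), classical light-responsive elements.
RBCS2B (chr5:15382072-15382285, minus strand): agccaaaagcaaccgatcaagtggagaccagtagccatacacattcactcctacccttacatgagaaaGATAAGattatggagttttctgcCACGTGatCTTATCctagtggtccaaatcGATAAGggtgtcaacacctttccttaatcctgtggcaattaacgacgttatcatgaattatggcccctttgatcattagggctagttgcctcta
GLDP1 (chr4:15931423-15931582, minus strand): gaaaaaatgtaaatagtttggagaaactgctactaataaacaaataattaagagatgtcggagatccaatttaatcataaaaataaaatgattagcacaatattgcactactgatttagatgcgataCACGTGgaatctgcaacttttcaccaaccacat

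In the full windows, RBCS1A held an I-box, a G-box and another I-box at 108, 84 and 55 bases before the entry. RBCS2B and RBCS3B had the same kind of cluster with 3 I-boxes each around a G-box at 159 and 107 bases, while RBCS1B had 2 overlapping I-boxes and no G-box. GLDP1 had a G-box at 123 bases and GLDP2 had neither word. Counting both strands, the G-box was found in 7 of 23 Calvin cycle promoters (30.4%) and 1 of 10 photorespiration promoters (10%), against 7.70% of 26297 promoters of the same length. The I-box was found in 9 of 23 (39.1%) and 1 of 10 (10%), against 12.8% of all. The E-box (CANNTG, which includes the G-box) was found in 20 of 23 (87%) and 6 of 10 (60%), against 54.1%, and the GT1 box (GGTTAA) in 3 of 23 (13%) and 1 of 10 (10%), against 14.6%. The other Calvin cycle genes with a G-box were RCA, FBA1, cpFBPase and CP12-1. Of the 8 members with a G-box, RBCS2B, cpFBPase and GLDP1 have it upstream of the RefSeq gene and the other 5 inside it. A match describes the letters in this window only.

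Several members are close copies, and how reads shared by copies were assigned is not given in the sources used here, so values of single copies are uncertain. The coding sequences of RBCS1B, RBCS2B and RBCS3B, which lie in tandem on chromosome 5, were 96.7 to 97.3% identical in pairs, and the longest stretch common to RBCS1B and RBCS3B was 230 bases. RBCS1A on chromosome 1 was 90.4 to 90.6% identical to them. GOX1 and GOX2, neighbours on chromosome 3, were 92.4% identical, GAPA-1 and GAPA-2 85.8%, and GLDP1 and GLDP2 85.2%. The 60 coding bases (positions 91 to 150 from the start codon) that differ most among the tandem copies show how few bases part them. Capitals mark the 8 positions that differ, of 25 in the whole coding sequence of 546 bases.
RBCS1B: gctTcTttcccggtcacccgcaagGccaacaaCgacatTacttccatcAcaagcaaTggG
RBCS2B: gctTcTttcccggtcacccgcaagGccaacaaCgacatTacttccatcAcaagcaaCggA
RBCS3B: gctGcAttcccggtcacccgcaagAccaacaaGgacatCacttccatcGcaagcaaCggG

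In the light, the members of both pathways were lower in DAYi DEX than in DAYi EtOH almost without exception, and lower to a smaller extent in bri1-116 than in Col-0. A gene is counted as higher or lower when its FPKM was above 0 in both libraries and differed more than 2-fold, and a log2 ratio is log2((FPKM + 1)/(FPKM + 1)). In light DAYi DEX, 20 of 23 Calvin cycle genes and 10 of 10 photorespiration genes were lower and none of the 33 was higher, where 16.3% of the 22021 genes compared were lower and 12.1% higher. The median log2 ratio was -1.71 for the Calvin cycle and -1.65 for photorespiration. In light bri1-116, 7 of 23 and 4 of 10 were lower and none was higher, where 7.82% of 22191 genes were lower and 6.52% higher, with medians of -0.85 and -0.90. SHM1 was counted at 2.0-fold lower, and scaling to the same sum without AT2G01021, the most abundant entry, left 4 Calvin cycle and 2 photorespiration genes lower there.

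In the dark the directions parted. In the DEX-labelled library, 8 of the 22 Calvin cycle genes above 0 in both libraries and 4 of 10 photorespiration genes were lower than in DAYi EtOH and none was higher, where 12.2% of 22257 genes were lower and 9.36% higher, and both medians were -0.60. In bri1-116, 16 of 23 Calvin cycle genes were higher than in Col-0 and none lower, and 3 of 10 photorespiration genes were higher and 1, AGT1, lower, where 11.2% of 22200 genes were higher and 9.01% lower. The medians were 1.32 and 0.66. With the genotype fields read in place of the titles, the same 16 Calvin cycle genes would be lower in bri1-116. With DAYi EtOH as the control, 18 of the 20 calls in dark bri1-116 were the same and RBCS2B and AGT1 were lost. With dark Col-0 as the control, all 12 calls in the DEX-labelled library were kept, GAPA-2 was also lower and CP12-2 was higher.

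The control libraries lay close together, though they are not replicates. Between DAYi EtOH and Col-0, no member was more than 2-fold apart in the light, where 1.96% of genes were higher and 2.18% lower, and 1 was in the dark, FBA5 at under 1 FPKM, where 2.19% were higher and 2.22% lower. The SD over members of this log2 ratio was 0.18 (Calvin cycle) and 0.19 (photorespiration) between the dark controls and 0.10 and 0.07 between the light ones. Its median was 0.05 and -0.20 between the dark controls and -0.08 and -0.03 between the light ones.

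**Figure D1:**
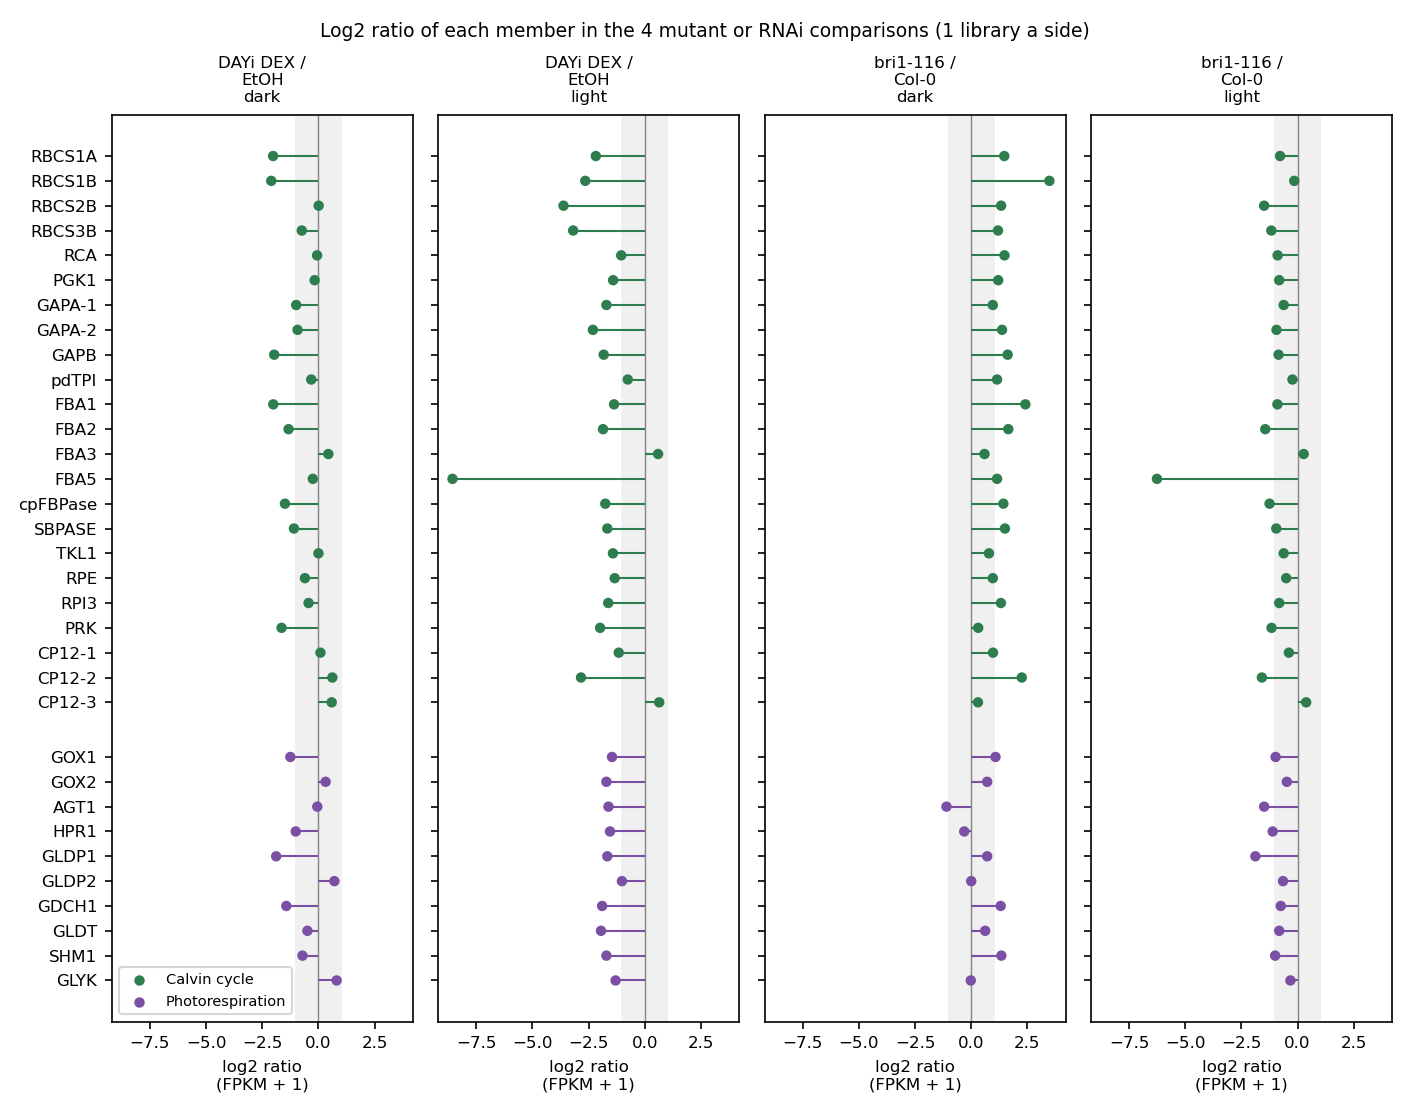
Log2 ratio of the 33 members (rows) in the 4 comparisons (panels), each between 2 libraries, with Calvin cycle genes in green and photorespiration genes in purple and the grey band marking a ratio within 1 of 0. Both pathways lie left of 0 in the light panels apart from FBA3 and CP12-3, FBA5 reaches -8.56 and -6.26, and in the dark bri1-116 panel all Calvin cycle genes lie right of 0.

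Rubisco small-subunit transcripts were the largest component, at 39.7 to 59.7% of the summed Calvin cycle FPKM in every library. RBCS1A (AT1G67090, chr1:25048158-25049424, TAIR10) encodes the main small subunit. In the order Col-0, DAYi EtOH, bri1-116 and DAYi DEX (labelled DEX in the dark), which all values below follow, RBCS1A read 2093, 2542, 5785 and 624 FPKM across the dark libraries and 24744, 21795, 14437 and 4794 FPKM across the light ones. The dark library labelled DEX was the lowest of the 8, at 4.07-fold below DAYi EtOH, dark bri1-116 was 2.76-fold above Col-0, and light DAYi DEX stood below dark bri1-116. RBCS1B read 15.2, 14.9, 179.7 and 2.69 FPKM across the dark libraries and 2467, 2529.7, 2217 and 403 FPKM across the light ones. This copy spanned the widest range of the 4: it was 11.8-fold higher in dark bri1-116, 5.53-fold lower in the DEX-labelled dark library and 163-fold higher in light than in dark Col-0, and light bri1-116 was close to Col-0 (log2 ratio -0.15).

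RBCS2B read 589, 835, 1479.5 and 841 FPKM across the dark libraries and 7083, 7639.5, 2517 and 620.4 FPKM across the light ones. RBCS2B showed the largest fold among the 4 in light DAYi DEX, 12.3-fold lower, yet the DEX-labelled dark library equalled its control (log2 ratio 0.01). RBCS3B read 425, 440.0, 968 and 262 FPKM across the dark libraries and 8097, 8153, 3599.8 and 893 FPKM across the light ones. RBCS3B was 9.13-fold lower in light DAYi DEX, 2.25-fold lower in light bri1-116 and 2.28-fold higher in dark bri1-116. The copies thus made up the sum differently in each library: RBCS1A held 67.0, 66.3 and 68.8% in dark Col-0, DAYi EtOH and bri1-116 but 36.1% in the DEX-labelled dark library, where RBCS2B held 48.6%. In the light the RBCS1A share was 58.4 and 54.3% in the controls, 63.4% in bri1-116 and 71.4% in DAYi DEX, while that of RBCS2B was 16.7 and 19.0% in the controls, 11.1% in bri1-116 and 9.25% in DAYi DEX. RCA read 198, 175, 552 and 167 FPKM across the dark libraries and 7763, 8294, 4196 and 3995 FPKM across the light ones. RCA encodes Rubisco activase, the chaperone that frees inhibited active sites. It differed 39.3-fold between light and dark Col-0 but did not part from its control in the DEX-labelled dark library (log2 ratio -0.06), and in light DAYi DEX it was 2.08-fold lower, the mildest called difference of this step.

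**Figure D2:**
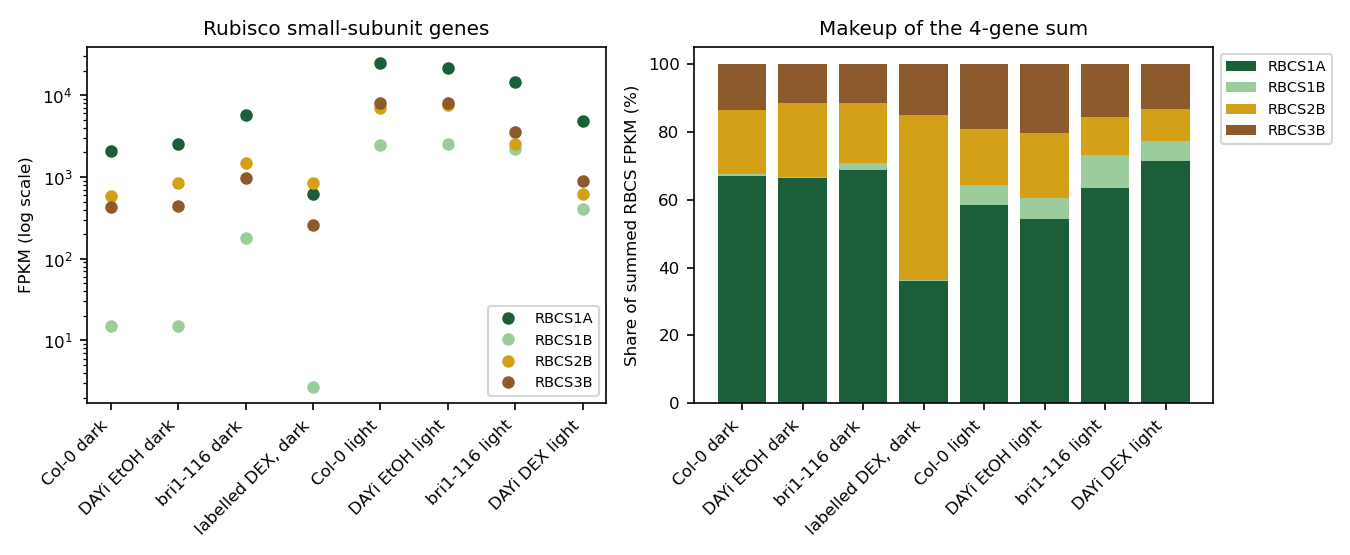
FPKM of the 4 RBCS genes in each library on a log axis (left) and the share of each in their sum in percent (right). RBCS1A leads in every library except the dark one labelled DEX, where RBCS2B holds 48.6% and RBCS1A 36.1%.

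The reduction step runs through phosphoglycerate kinase and the chloroplast glyceraldehyde-phosphate dehydrogenase, built of GAPA and GAPB subunits. PGK1, the kinase, stood at 91.9, 91.9, 212 and 81.4 FPKM across the dark libraries and 991, 869.7, 559.8 and 327 FPKM across the light ones. It was 2.66-fold lower in light DAYi DEX and 2.3-fold higher in dark bri1-116, and close to its control in the DEX-labelled dark library. GAPA-1 read 463, 465, 899 and 233 FPKM across the dark libraries and 2884, 2663, 1871 and 812 FPKM across the light ones. GAPA-2 read 129, 108, 334 and 56.0 FPKM across the dark libraries and 1976, 1867, 1029 and 375 FPKM across the light ones. Both GAPA copies were near the 2-fold limit in the DEX-labelled dark library, at 1.99-fold and 1.93-fold lower, and not counted. GAPB read 81.4, 79.9, 251 and 19.6 FPKM across the dark libraries and 1744, 1639.8, 969 and 461 FPKM across the light ones. GAPB differed more: it was 4.07-fold lower in the DEX-labelled dark library and 3.09-fold higher in dark bri1-116. The ratio of summed GAPA to GAPB was 7.27 and 7.17 in the dark controls, 14.7 in the DEX-labelled library and 4.91 in bri1-116, and 2.58 to 2.99 in the 4 light libraries.

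Regeneration begins with triose-phosphate isomerase and aldolase. pdTPI, the plastid isomerase, stood at 151, 152, 335 and 121 FPKM across the dark libraries and 379.9, 379, 325 and 223 FPKM across the light ones, and of the 4 comparisons only dark bri1-116 (2.23-fold higher) passed 2-fold. FBA2, the most abundant plastid aldolase, read 142, 140.1, 446 and 55.2 FPKM across the dark libraries and 4166, 3964, 1539 and 1094 FPKM across the light ones. It was lower in the DEX-labelled dark library (2.54-fold), in light DAYi DEX (3.62-fold) and in light bri1-116 (2.71-fold), and higher in dark bri1-116 (3.14-fold). FBA1 read 25.0, 28.4, 137 and 6.28 FPKM across the dark libraries and 1520.3, 1524, 814 and 589.7 FPKM across the light ones. FBA1, also a plastid aldolase, had the same signs with wider dark folds, 4.52-fold lower in the DEX-labelled library and 5.47-fold higher in bri1-116, and light bri1-116 missed 2-fold at 1.87-fold lower. FBA3, the remaining plastid aldolase, stood above its control in all 4 comparisons, by 1.21-fold to 1.51-fold, at between 135 and 205 FPKM in the dark and between 191 and 288 FPKM in the light, highest in light DAYi DEX and never 2-fold apart.

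FBA5, a cytosolic aldolase on the list, gave the widest differences of all members. FBA5 read 0.0568, 0.188, 1.35 and 0 FPKM across the dark libraries and 519.7, 480.5, 5.77 and 0.280 FPKM across the light ones. It was thus abundant in the light controls only, 90.0-fold lower in light bri1-116 and 1717-fold lower in light DAYi DEX, while all dark libraries lay at or under 1.35 FPKM and the DEX-labelled library was listed at 0. The value in light DAYi DEX rests on at most roughly 39.0 fragments and that in dark Col-0 on at most roughly 7.19. Both numbers are overestimates, because they use a RefSeq transcript of 2217 bases, longer than the file's entry (chr4:13391293-13393107). The size of these folds, and of the 9143-fold difference between light and dark Col-0, is therefore loose. The log2 ratio with 1 FPKM added was -8.56 in light DAYi DEX and -6.26 in light bri1-116.

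The chloroplast phosphatases behaved alike. cpFBPase, fructose-1,6-bisphosphatase, stood at 30.5, 35.5, 84.2 and 12.0 FPKM across the dark libraries and 539, 508, 226 and 149 FPKM across the light ones. SBPASE, sedoheptulose-1,7-bisphosphatase, read 55.4, 55.9, 159 and 25.8 FPKM across the dark libraries and 846, 794, 437 and 248 FPKM across the light ones. In the DEX-labelled dark library they were 2.96-fold and 2.17-fold lower, in dark bri1-116 2.76-fold and 2.86-fold higher, and in light DAYi DEX 3.40-fold and 3.20-fold lower. In light bri1-116 cpFBPase passed 2-fold (2.39-fold lower) and SBPASE, at 1.93-fold, did not. The file's entry for cpFBPase runs past the RefSeq gene, as does that for RPI3, so reads of a neighbour may be included.

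Among the last steps, TKL1 (transketolase) stood at 230.3, 200.3, 400.1 and 199.6 FPKM across the dark libraries and 1049.7, 959, 684 and 359 FPKM across the light ones. RPE, the ribulose-phosphate epimerase, read 135, 130.5, 262 and 85.9 FPKM across the dark libraries and 532, 515, 372 and 203 FPKM across the light ones. RPI3, a ribose-phosphate isomerase, read 19.8, 21.4, 50.9 and 15.6 FPKM across the dark libraries and 244, 207, 138 and 66.3 FPKM across the light ones. These 3 were 2.54-fold to 3.12-fold lower in light DAYi DEX, and none was 2-fold apart in the DEX-labelled dark library or in light bri1-116. PRK, phosphoribulokinase, which makes the acceptor of CO2, read 268, 290.3, 332 and 92.3 FPKM across the dark libraries and 1779, 1716, 797 and 433 FPKM across the light ones. It was lower in the DEX-labelled dark library (3.14-fold), light DAYi DEX (3.97-fold) and light bri1-116 (2.23-fold), but dark bri1-116 was only 1.24-fold above Col-0, the smallest difference of the step in that comparison. PRK therefore did not share the higher dark level in bri1-116 that FBA1, FBA2, cpFBPase and SBPASE showed.

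CP12 proteins bind GAPDH and phosphoribulokinase and hold them inactive in the dark. CP12-1 stood at 664, 706, 1299 and 753 FPKM across the dark libraries and 1267, 1109, 965 and 495 FPKM across the light ones, and it was the only Calvin cycle gene with its highest value in dark bri1-116. CP12-2 read 9.36, 12.0, 48.2 and 19.0 FPKM across the dark libraries and 569, 452, 188 and 62.4 FPKM across the light ones, 60.7-fold higher in light than in dark Col-0, 5.14-fold higher in dark bri1-116 and 7.25-fold lower in light DAYi DEX. CP12-3 lay between 20 and 41.9 FPKM everywhere, was never 2-fold apart and had its highest value in the DEX-labelled dark library. Among the Calvin cycle steps the regulators alone had no called difference in that library against DAYi EtOH, with a median log2 ratio of 0.59 over the 3 genes, against -0.74 for carboxylation, -0.96 for reduction and -0.60 for regeneration. Against dark Col-0, CP12-2 was more than 2-fold higher there (19.0 against 9.36 FPKM).

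**Figure D3:**
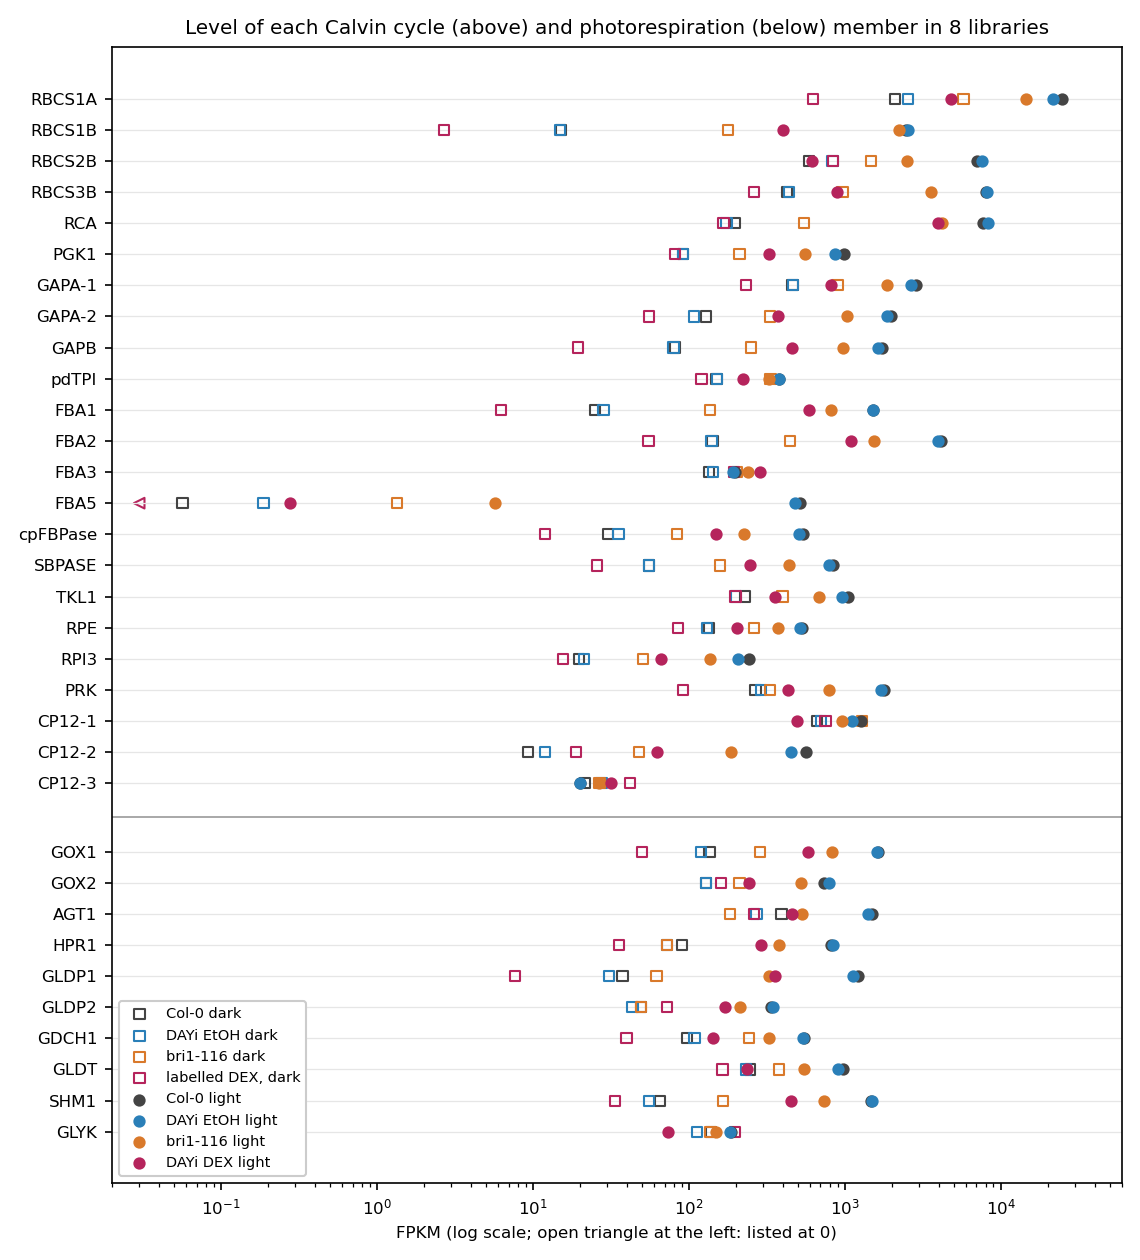
FPKM of each member (rows, Calvin cycle above the line, photorespiration below) on a log axis, with open squares for the 4 dark and filled circles for the 4 light libraries. For most genes the light controls lie to the right, light bri1-116 and DAYi DEX to their left in that order, and the DEX-labelled dark library at the far left.

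In photorespiration the peroxisomal enzymes come first. GOX1 encodes a glycolate oxidase and stood at 136, 120.0, 288 and 50 FPKM across the dark libraries and 1641, 1604, 834 and 583 FPKM across the light ones. It was 2.40-fold lower in the DEX-labelled dark library, 2.12-fold higher in dark bri1-116 and 2.75-fold lower in light DAYi DEX. GOX2, its neighbour and near copy, read 129, 129, 212 and 161 FPKM across the dark libraries and 737, 795, 526 and 243 FPKM across the light ones, was more than 2-fold apart in 1 of the 4 comparisons, light DAYi DEX (3.28-fold lower), and was slightly above its control in the DEX-labelled dark library (log2 ratio 0.32). AGT1, the serine:glyoxylate aminotransferase, read 394, 272, 184 and 263 FPKM across the dark libraries and 1490.2, 1416, 530.1 and 459 FPKM across the light ones. It was the only member lower in dark bri1-116, 2.14-fold below Col-0, but it was also the photorespiration gene on which the dark controls differed most (394 and 272 FPKM), and against DAYi EtOH it was not 2-fold apart. HPR1, hydroxypyruvate reductase, read 90.4, 72.9, 72.5 and 35.8 FPKM across the dark libraries and 823, 847, 380.3 and 289 FPKM across the light ones. It was 2.04-fold lower in the DEX-labelled dark library, 2.93-fold in light DAYi DEX and 2.16-fold in light bri1-116, and dark bri1-116 was not higher than Col-0.

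In the mitochondrion, glycine is split by the glycine decarboxylase complex and serine is made by hydroxymethyltransferase. GLDP1, a P protein of the complex, stood at 37.6, 31.0, 62.2 and 7.70 FPKM across the dark libraries and 1216, 1136, 329.6 and 356 FPKM across the light ones, was 4.03-fold lower in the DEX-labelled dark library and 3.69-fold lower in light bri1-116, and was the only photorespiration gene lower in light bri1-116 than in light DAYi DEX. GLDP2, the other P protein, read 49.4, 43.7, 49.2 and 72.3 FPKM across the dark libraries and 335, 348, 213 and 171 FPKM across the light ones. It was the highest of the 4 dark libraries in the one labelled DEX, 1.66-fold above DAYi EtOH, and of the 4 comparisons passed 2-fold only in light DAYi DEX (2.04-fold lower). GDCH1, an H protein, read 97.9, 109, 245 and 39.9 FPKM across the dark libraries and 552, 539.7, 328 and 144 FPKM across the light ones. It was 2.73-fold lower in the DEX-labelled library and 2.50-fold higher in bri1-116 in the dark, and 3.76-fold lower in light DAYi DEX.

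GLDT, the T protein, stood at 246, 233, 378 and 165 FPKM across the dark libraries and 972, 907, 549 and 235 FPKM across the light ones, of the 4 comparisons passed 2-fold only in light DAYi DEX (3.87-fold lower), and light DAYi DEX (235 FPKM) was at the level of dark DAYi EtOH (233 FPKM). SHM1, serine hydroxymethyltransferase, read 65.2, 55.9, 166 and 33.8 FPKM across the dark libraries and 1471, 1491, 734 and 456 FPKM across the light ones, 2.55-fold higher in dark bri1-116 and 3.27-fold lower in light DAYi DEX. GLYK, the chloroplast glycerate kinase that closes the pathway, read 139.7, 113, 138 and 198 FPKM across the dark libraries and 188, 183, 150.4 and 73.4 FPKM across the light ones. GLYK, like GOX2 and GLDP2, lay above both dark controls in the DEX-labelled dark library, where it had its highest value of the 8. Light DAYi DEX lay below that value (73.4 against 198 FPKM). This made GLYK the only member more than 2-fold lower in light than in dark in any genotype or treatment.

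Set against each other, the medians of the pathways lay close in 3 of the 4 comparisons. The photorespiration median minus the Calvin cycle median was 0.00 in the DEX-labelled dark library, 0.07 in light DAYi DEX and -0.05 in light bri1-116. In dark bri1-116 it was -0.66, and -0.48 with DAYi EtOH as the control, while it was -0.25 between the dark controls themselves and 0.05 between the light ones. In dark bri1-116, 22 of 23 Calvin cycle genes lay above both dark controls, CP12-3 being the exception, against 6 of 10 photorespiration genes. The share of all genes above both dark controls is not given here. In both control genotypes 20 of 23 Calvin cycle and 9 of 10 photorespiration genes were more than 2-fold higher in the light, with medians of 3.59 and 2.62 in Col-0 (22.9% of 21804 genes higher, 19.1% lower) and 3.23 and 2.79 in DAYi EtOH (21.2% of 22068 genes higher). In bri1-116, 16 and 7 genes were higher in the light with medians of 1.41 and 1.53 (15.3% of genes higher, 12.7% lower), and in DAYi DEX 16 of 22 and 6 of 10 with medians of 1.99 and 1.52 (14.9% higher, 13.2% lower). These comparisons share libraries with those above, the dark end of the last rests on the DEX-labelled library, and light and age cannot be told apart.

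**Figure D4:**
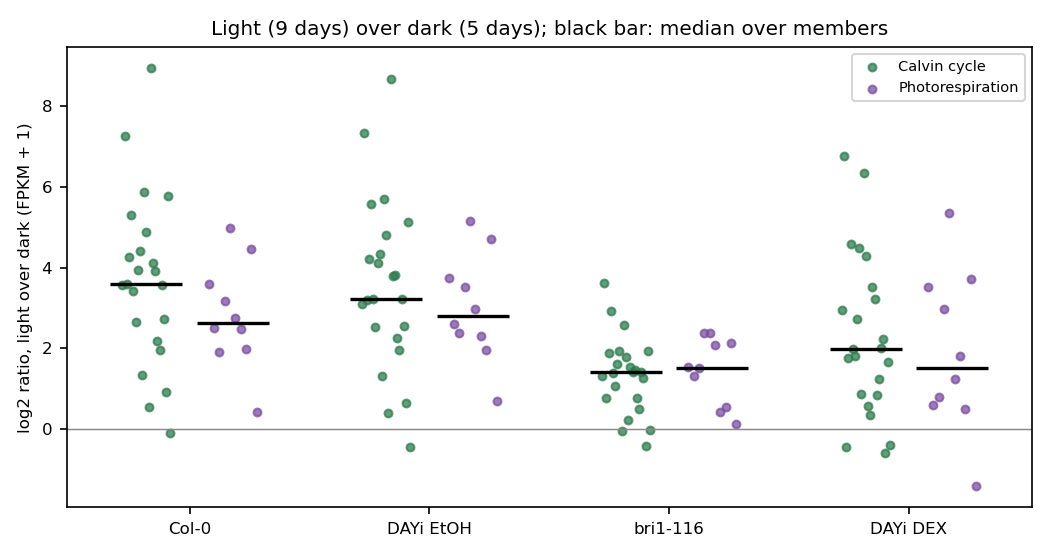
Log2 ratio of light over dark for each member in the 4 genotypes or treatments, with Calvin cycle genes in green, photorespiration genes in purple and a black bar at the median over members. The medians are 3.59 and 2.62 in Col-0, 3.23 and 2.79 in DAYi EtOH, 1.41 and 1.53 in bri1-116 and 1.99 and 1.52 in DAYi DEX.

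As shares of the summed FPKM, the Calvin cycle held 0.743, 0.694, 1.5 and 0.339% of the dark libraries and 5.71, 5.73, 4.05 and 1.82% of the light libraries. Photorespiration held 0.172, 0.122, 0.186 and 0.0890% of the former and 0.754, 0.778, 0.486 and 0.324% of the latter. The Calvin cycle sum was 4.31, 5.68, 8.05 and 3.81 times the photorespiration sum in dark libraries and 7.57, 7.37, 8.34 and 5.62 times in light libraries, so it was widest in bri1-116 and narrowest in DAYi DEX in both conditions. AT2G01021 alone held 5.23 to 28.6% of the dark and 1.51 to 4.39% of the light sums, which moves such shares. As a percent of the light Col-0 level, the median Calvin cycle gene stood at 8.08 and 8.76% in the dark controls, 18.8% in dark bri1-116, 3.34% in the DEX-labelled dark library, 55.6% in light bri1-116 and 27.7% in light DAYi DEX. The median photorespiration gene stood at 16.2 and 15.3%, 16.1%, 12.1%, 53.7% and 32.0% in the same libraries.

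Among the members the order of libraries was regular, but the share of all genes with each order is not given here. In the light, both controls lay above bri1-116 and bri1-116 above DAYi DEX for 21 of 23 Calvin cycle genes (all but FBA3 and CP12-3) and 9 of 10 photorespiration genes (all but GLDP1). The dark library labelled DEX was the lowest of the 8 for 18 of 23 Calvin cycle and 6 of 10 photorespiration genes. Light DAYi DEX lay below dark bri1-116 for 9 Calvin cycle genes, among them RBCS1A, RBCS2B and RBCS3B, and for GDCH1, GLDT and GLYK. Between comparisons that share no library, Spearman's rho over the 33 members was -0.47 for the dark pair (DAYi set against bri1-116) and 0.56 for the light pair. These are across genes that share libraries and depth, not replicates, and describe this list only. In the dark pair, 7 Calvin cycle genes (RBCS1A, RBCS1B, GAPB, FBA1, FBA2, cpFBPase and SBPASE) and GOX1 and GDCH1 were lower in the DEX-labelled library and higher in bri1-116, a pattern held by 1.86% of the 21799 genes above 0 in all 4 libraries, and no member was lower in both (3.94% of these genes). None was higher in both either, but the share of all genes higher in both is not given here. In the light pair, 7 Calvin cycle genes (RBCS2B, RBCS3B, FBA2, FBA5, cpFBPase, PRK and CP12-2) and 4 photorespiration genes (AGT1, HPR1, GLDP1 and SHM1) were lower in both, as were 3.78% of 21644 genes, and no member was lower in DAYi DEX and higher in bri1-116 (0.698% of genes).

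In the GOX, GLDP and FBA pairs that follow, the DEX-labelled dark library differed in the balance of isoforms. The FPKM ratio of GOX1 to GOX2 was 1.05, 0.930 and 1.36 in dark Col-0, DAYi EtOH and bri1-116 and 0.310 in the DEX-labelled library. That of GLDP1 to GLDP2 was 0.761, 0.711, 1.26 and 0.107, and that of FBA2 to FBA3 was 1.05, 0.976, 2.18 and 0.284. In each of these pairs the first gene was lower and the second was not, so the summed FPKM of the pair differed less than that of the first gene alone. GAPA-1 to GAPA-2 did not shift in this way, at 3.60, 4.31 and 2.69 in dark Col-0, DAYi EtOH and bri1-116 and 4.16 in the DEX-labelled library. In the light, the ratios in the controls were 2.23 and 2.02 for GOX1 to GOX2, 3.63 and 3.26 for GLDP1 to GLDP2 and 20.9 and 20.7 for FBA2 to FBA3. In bri1-116 they were 1.58, 1.55 and 6.40, and in DAYi DEX 2.40, 2.08 and 3.8.

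**Figure D5:**
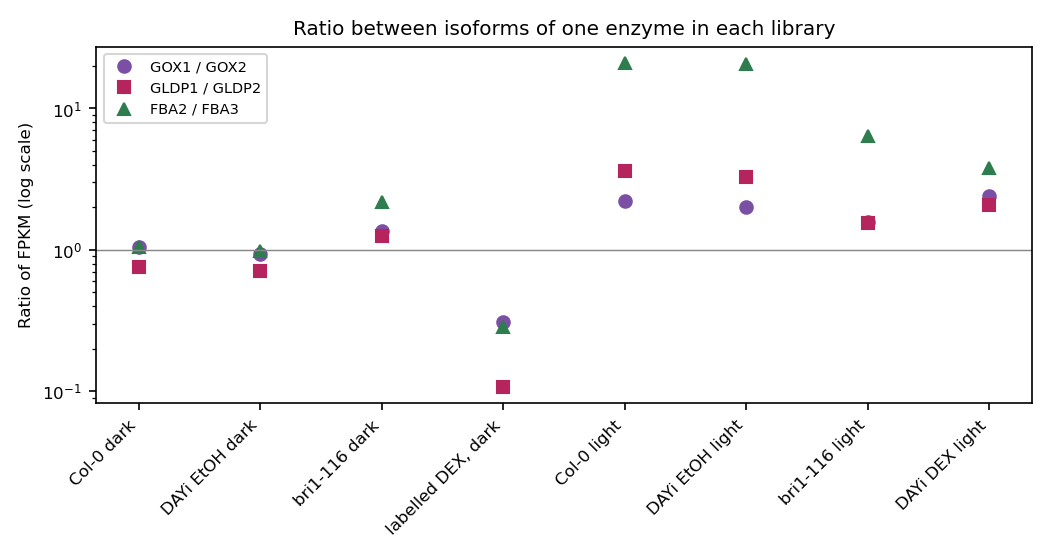
FPKM ratio of GOX1 to GOX2, GLDP1 to GLDP2 and FBA2 to FBA3 in each library on a log axis, with a line at equal levels. All 3 ratios lie below 1 in the DEX-labelled dark library (0.310, 0.107 and 0.284) and above 1 in every light library.

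Other genes of the pathways were read from lists that also were drawn up with earlier results known. Over all genes, 16.3% were lower and 12.1% higher in light DAYi DEX, and 7.82% lower and 6.52% higher in light bri1-116. In the dark, 12.2% were lower and 9.36% higher in the DEX-labelled library, and 9.01% lower and 11.2% higher in bri1-116. Of 8 other Calvin cycle isoforms and partners, 6 were lower and 1 higher in light DAYi DEX (CFBP2, another chloroplast fructose-bisphosphatase, lowest at log2 ratio -2.69, and TKL2, another transketolase, highest at 1.09), and 1 was lower in light bri1-116. In the dark, 3 were higher in bri1-116, and 1 (CFBP2) was higher in the DEX-labelled library. Of 11 Rubisco assembly factors, 10 were lower in light DAYi DEX and 10 higher in dark bri1-116, with medians of -1.70 and 1.51. BSD2, a chaperone of Rubisco assembly, was highest in dark bri1-116 at a log2 ratio of 2.09. In the DEX-labelled dark library 3 were lower, and in light bri1-116 2. Of 9 redox regulators that activate Calvin cycle enzymes, 7 were lower in light DAYi DEX, 5 in light bri1-116 and 1 in the DEX-labelled dark library, and 8 were higher in dark bri1-116.

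Apart from FBA5, counted above with the Calvin cycle genes, the cytosolic counterparts of the Calvin cycle enzymes mostly did not follow. Of 10, 1 was higher and 2 lower in light DAYi DEX, 1 lower in light bri1-116, 1 lower in the DEX-labelled dark library and 1 higher in dark bri1-116, with medians of 0.15, 0.04, 0.31 and 0.28. The exceptions were FBA7, an aldolase close to FBA5 in the genome, at -2.50 in light DAYi DEX, -2.24 in the DEX-labelled library and 2.12 in dark bri1-116, cyFBP, the cytosolic fructose-bisphosphatase of sucrose synthesis, at -2.37 in light DAYi DEX and -1.71 in light bri1-116, and FBA6, another aldolase, at 1.03 in light DAYi DEX. Of 19 other photorespiration genes, 5 were lower and 1 higher in light DAYi DEX, 2 lower in light bri1-116, 4 lower and 1 higher in the DEX-labelled dark library and 2 higher in dark bri1-116. Their median log2 ratio in light DAYi DEX was 0.06, unlike that of the photorespiration members. Of the counts in this paragraph, those of 1 of 10 and 2 of 19 lay near the shares of all genes given above. GDCH3, another H protein, was lowest at -2.53 in light DAYi DEX and highest at 1.4 in dark bri1-116, and GOX3, a glycolate oxidase isoform, was highest at 1.86 in light DAYi DEX. Of 5 transporters, 2 were lower in each light comparison, BOU, a mitochondrial carrier, lowest in both at -1.49 and -1.41. PGLP1, phosphoglycolate phosphatase, exists as 2 near-identical copies that both read at or under 1.44 FPKM, so its level is uncertain.

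Among the markers of cell types and organs, those of green tissue moved with these differences in all 4 comparisons. The other lists followed in part or not at all. The shares of all genes to read beside these counts are those given with the other genes of the pathways. In whole seedlings, fewer green cells and less RNA per green cell cannot be told apart. Light-harvesting antenna genes, the marker of green tissue, were 15 of 17 lower in the DEX-labelled dark library, 17 of 17 lower in light DAYi DEX and in light bri1-116, and 12 of 17 higher in dark bri1-116. Their summed level was 7598 and 5483 FPKM in the dark controls, 24526 in dark bri1-116, 1855 in the DEX-labelled library, 110216 and 106732 in the light controls, 32521 in light bri1-116 and 19835 in light DAYi DEX. Root hair markers were 6 of 6 higher in both dark comparisons, with sums of 2.67 and 2.65 FPKM in the controls, 8.99 in bri1-116 and 34.5 in the DEX-labelled library, and 0 of 6 passed 2-fold in the light (34.9 to 77.8 FPKM). Shoot epidermis markers were 3 of 3 lower in the DEX-labelled library and 2 of 3 in light DAYi DEX, with sums of 385 and 518 against 148 FPKM and 449 and 405 against 177 FPKM, and 1 of 3 lower in each bri1-116 comparison. Their part in the members' results was not tested. Glyoxysome enzymes, which serve seedlings living on stored fat, were 5 of 6 higher in light DAYi DEX and summed to 414 FPKM against 199.6 and 180.0 in the light controls. In light bri1-116, 2 of 6 were higher with a sum of 262 FPKM, and 1 of 6 was lower in each dark comparison. Seed storage markers summed to 5.95 FPKM in light DAYi DEX and to no more than 0.116 FPKM in the other light libraries. Root markers were lower for 1 of 2 in each DAYi comparison, 2 of 2 in dark bri1-116 and 1 of 2 in light bri1-116, guard cell markers for 0 of 2 in all 4, and xylem markers for 2 of 3 in dark bri1-116 and 0 of 3 in the other 3. The root marker called in the light was NRT2.1, at 1.49 FPKM or less, while CASP1 read 32.2, 32.3, 29.7 and 47.6 FPKM there. In the dark DAYi comparison the call was CASP1. Only 2 of 4 listed root markers and 2 of 3 guard cell markers had a row of their own. Seed markers were 2 of 3 lower in the DEX-labelled dark library at sums under 1 FPKM. Only the seed markers OLEO1 and SESA3 were at 0 in any library.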

How the data were processed

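RNA from whole Arabidopsis seedlings was sequenced as 8 libraries, 1 per condition, with a TruSeq mRNA kit. Per the labels and the study's methods, the authors used CASAVA 1.8.2, TopHat2 2.0.13 with the TAIR10 build, and Cuffdiff 2.2.0 for FPKM per gene. The deposited FPKM values of 4 tables with 26987 entries each were used as they stand. Columns of fold changes, p-values and q-values, and the authors' lists of selected genes, were not used. FPKM carry no counts, so depth was estimated from the spacing of low values in 2672 intronless genes of at least 900 bases. The estimate is rough: 47.9 to 64.9% of values came out whole within 0.15 of a fragment, against 30.0% for an unfitted step.

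Groups follow the titles. A gene is higher or lower when its FPKM is above 0 in both libraries and differs more than 2-fold, as in the study's fold criterion, and log2 ratios use a pseudocount of 1 FPKM, so they understate the change of low genes. The median over all genes uses those of at least 1 FPKM in 1 of the 2 libraries. Values in all 8 libraries are given for the most abundant member of each enzyme step (often its only one), for members against their pathway's majority, for members in opposite directions in DAYi and bri1-116, and for near copies that part by more than 2-fold. FBA5, CP12-2 and GAPA-2 were added after their values were seen, and FBA3 and CP12-3 are given by their range. Other genes come from 14 lists, by their widest ratio in each direction, except for an item that is not reported here. The members and lists were chosen with earlier results of these data known. Calls were tested on simulated data. Alternatives were other folds, filters, scalings, pseudocounts and controls, exchanged dark labels, copies summed, and FBA5 and CP12-3 left out. Python 3.11.15, pandas 2.3.3, numpy 2.4.6, scipy 1.17.1 and Biopython 1.88 were used. Sequences come from RefSeq TAIR10.1, and 33 of 33 members matched.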

Additional observations from a re-analysis of the deposited data

Results flagged for a closer look

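For 9 members the dark comparisons went opposite ways by more than 2-fold, lower in the DEX-labelled DAYi library and higher in bri1-116. With 1 library per condition this difference between the comparisons was not tested, and it turns if the genotype fields of the dark Col-0 and bri1-116 libraries are right in place of their titles. Under scaling to the same sum without AT2G01021, GOX1 no longer passed 2-fold in dark bri1-116. The log2 ratio for DAYi minus that for bri1-116 was -3.49 for RBCS1A, -5.59 for RBCS1B, -3.59 for GAPB, -4.42 for FBA1, -2.97 for FBA2, -2.92 for cpFBPase, -2.59 for SBPASE, -2.32 for GOX1 and -2.74 for GDCH1.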

How the results depend on the processing

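No paired analysis was possible because each condition has 1 library, and for the same reason no library could be left out. Of the 181 recomputed values of the 4 DAYi and bri1-116 comparisons, 156 kept their direction and stayed near the value reported (a count within 1.5 times, a median within the SD over members between the controls), 20 moved and 5 reversed. This tally includes values that a setting could not change, such as photorespiration values without FBA5 and CP12-3 and photorespiration counts under the filters. Other scalings could hardly change the difference between the pathways. All 5 that reversed did so when dark Col-0 and bri1-116 were exchanged: 0 Calvin cycle genes higher and 16 lower, 1 photorespiration gene higher and 3 lower, medians of -1.32 and -0.66, and a difference of 0.66 between the pathways. Outside these comparisons, the exchange turned the difference between the pathways to 0.22 for light against dark in Col-0, to -0.71 in bri1-116 and to 0.48 for DAYi EtOH against Col-0 in the dark, where 0 members of each pathway were then higher and 16 and 4 lower.

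A fold of 4 left 4 Calvin cycle genes and 1 photorespiration gene lower in the DEX-labelled dark library, 7 and 0 in light DAYi DEX, 1 and 0 in light bri1-116, and 4 and 0 higher in dark bri1-116. A fold of 1.5 gave 17 and 8 lower in light bri1-116 and 6 photorespiration genes higher in dark bri1-116. The share of all genes at these folds is not given here. Scaling to the same sum without AT2G01021 moved the median over all genes from 0.04 to 0.32 in light DAYi DEX, from -0.04 to 0.31 in light bri1-116, from -0.03 to -0.15 in dark bri1-116, and, for light against dark, to -0.59 in Col-0, -0.50 in DAYi EtOH, -0.11 in bri1-116 and -0.13 in DAYi DEX. In the light comparisons it moved the members' medians to -1.40 and -1.33 (DAYi DEX) and to -0.45 and -0.50 (bri1-116), and left 4 and 2 genes lower in light bri1-116. The 5 calls lost there were RBCS3B, cpFBPase, PRK, HPR1 and SHM1, and RCA, CP12-1, GLDP2 and GLYK were lost in light DAYi DEX and GOX1 in dark bri1-116. With light Col-0 as control, the Calvin cycle median of DAYi DEX was -1.85 and the difference between the pathways 0.20. Summing near copies gave a photorespiration median of -0.82 in light bri1-116. No member more than 2-fold apart in a main comparison turned to more than 2-fold the other way under the 3 other scalings or the other control. Depth limits FBA5 most, with at most roughly 7.19 to 42.5 fragments in dark Col-0, dark DAYi EtOH and light DAYi DEX.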
